A study of Mus musculus with 6 samples.

Results

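Ckap4 and 6 other genes whose products shape the endoplasmic reticulum (ER) were followed in endothelial cells sorted from mouse liver. The 7 genes, Ckap4, Rrbp1, Ktn1, Lrrc59, Rtn4, Reep5 and Atl3, were found by symbol among 26264 genes in the authors' expression table, and all 7 had a row there. The set was built around Ckap4, which was selected on its lower RNA on the drug diet in these same libraries, and the other members were added for their known roles in the ER. The difference of the members between diets is therefore given as a description, with no test.

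C57BL6 mice ate a diet with PLX5622 at 1200 ppm or a control diet for 1 month. PLX5622 is an oral inhibitor of the receptor kinase CSF1R, on which most tissue macrophages depend, and the stated aim of the series was to learn whether peripheral endothelium shows a sterol response to it. The cells came from a dissociated lobe of the liver and were sorted for CD31, and polyadenylated RNA was sequenced without strand information. Each diet had 3 libraries, which the labels call biological replicates. The labels give no sex or age of the mice and no unsorted sample.

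The ER is a continuous membrane system made of flat sheets, which carry most of the ribosomes that make secreted and membrane proteins, and of curved tubules. CKAP4, also called CLIMP-63, is a coiled-coil membrane protein of the sheets that sets the width of their lumen and ties them to microtubules. RRBP1 (p180) and LRRC59 bind ribosomes at the ER membrane, and kinectin, the product of Ktn1, is a sheet protein named for its binding of kinesin. RTN4 and REEP5 carry hairpins that wedge into the membrane and curve it into tubules, and atlastin 3, from Atl3, is a GTPase that fuses tubules into a network. Sinusoidal endothelial cells of the liver make receptors, matrix and secreted factors on these membranes.

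The libraries held between 14517956 and 32732209 reads, worked out from the deposited tables as described with the processing. Endothelial markers had summed levels of 17663, 18780 and 19628 TPM (a share of transcripts scaled by gene length, which sums to the same total in each library) in PLX5622 replicates 1 to 3, and of 16900, 20282 and 20950 TPM in control replicates 1 to 3, so the sorted cell type showed its markers in every library. The sums hide differences between single endothelial markers. Stab2 had 279, 474 and 684 TPM in PLX5622 replicates 1 to 3, against 343, 1007 and 993 TPM in control replicates 1 to 3. Clec4g was also lowest in replicate 1 of each diet, at 1780 TPM on PLX5622 and 1545 TPM on control. Pecam1 was highest there, at 1853 TPM on PLX5622 and 1981 TPM on control. Control replicate 1 stood apart in hepatocyte markers, at 5924 TPM against 1720 to 3476 TPM in the PLX5622 libraries and 2505 and 2724 TPM in the other control libraries. These are bulk samples, in which fewer cells of a type and less RNA per cell cannot be told apart. The labels do not say whether the replicates are separate mice, so intervals measure only the spread between these libraries.

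Promoter sequence is shown for the 3 members whose RNA did not overlap between diets, since it is where their transcription starts and where elements that respond to ER stress can lie. The sequences are the 250 bases before the start of the RefSeq gene on GRCm38.p6, another build than the mm39 that the authors used, written 5′ to 3′ on the strand of the gene. Capitals mark matches on either strand to CCAAT and to ACGTGG, the core of an element bound by the stress factor XBP1.
Ckap4, chr10:84533889-84534138, minus strand: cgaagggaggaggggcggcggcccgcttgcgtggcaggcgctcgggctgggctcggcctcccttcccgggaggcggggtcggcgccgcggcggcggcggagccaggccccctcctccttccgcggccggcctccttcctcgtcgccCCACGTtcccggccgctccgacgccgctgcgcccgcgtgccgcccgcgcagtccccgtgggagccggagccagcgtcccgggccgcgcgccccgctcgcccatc
Rrbp1, chr2:144011264-144011513, minus strand: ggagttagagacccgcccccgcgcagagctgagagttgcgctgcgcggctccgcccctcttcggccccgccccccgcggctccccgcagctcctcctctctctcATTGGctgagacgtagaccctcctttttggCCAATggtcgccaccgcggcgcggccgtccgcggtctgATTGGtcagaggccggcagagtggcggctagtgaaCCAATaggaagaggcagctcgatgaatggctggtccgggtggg
Lrrc59, chr11:94629527-94629776, plus strand: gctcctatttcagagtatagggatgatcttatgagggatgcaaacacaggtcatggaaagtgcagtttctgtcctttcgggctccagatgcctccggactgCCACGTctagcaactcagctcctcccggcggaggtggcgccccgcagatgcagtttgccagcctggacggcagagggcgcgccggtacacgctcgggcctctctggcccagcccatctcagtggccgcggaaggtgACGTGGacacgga
The Ckap4 promoter was 82.4% G and C, at the 99.5th percentile of 32851 promoters, against 68.0% for Rrbp1 and 61.6% for Lrrc59 and a median of 52.4% over all. It held 1 match to ACGTGG, which starts 104 bases before the gene, and 0 matches to CCAAT. Lrrc59 held 2 matches to ACGTGG, 149 and 13 bases before the start, and Rrbp1 held 4 matches to CCAAT, 146, 116, 78 and 43 bases before it. Over all promoters, 6.91% held ACGTGG and 33.8% held CCAAT. The GC box GGGCGG, found in 32.7% of promoters on either strand, matched 2 times in Ckap4, 3 times in Rrbp1 and 0 times in Lrrc59. Among the members not shown, 1 promoter of Rtn4, whose RNA overlapped between diets, held 2 matches to CCAAT and 3 to GGGCGG. RefSeq promoters were matched for 6 members, 9 promoters in all, and 0 of the 9 held the full ER stress element, CCAAT and CCACG with 9 bases between them on either strand, which 0.113% of all promoters held. Reep5 was not matched. These matches describe letters in a window and do not show binding, and a link to the difference between diets was not tested.

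Ckap4 had the lowest RNA relative to control of the 7 genes. It had 66.5, 67.1 and 73.4 TPM in PLX5622 replicates 1 to 3, against 94.8, 110.5 and 99.4 TPM in control replicates 1 to 3. The highest PLX5622 library lay below the lowest control library, and the gap between them was wider than the range within the PLX5622 diet. The means were 69.0 ± 3.86 TPM on PLX5622 and 101.6 ± 8.11 TPM on control (SD, n = 3 each), so the PLX5622 mean was 67.9% of the control mean. All fold changes computed here set PLX5622 over control as differences of mean log2(TPM + 1), and that of Ckap4 was -0.55 (95% interval of the limma fit -0.78 to -0.32). Behind these values were 1509, 1175 and 1535 reads in the PLX5622 libraries and 2681, 3681 and 1464 reads in the control libraries, which differ in depth.

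The authors' deposited table, made with DESeq2, gives Ckap4 a log2 fold change of -0.55 (SE 0.131) with an adjusted p of 0.0380, the value that led to its choice. That table calls 11 of 15097 genes (0.0729%), 4 of them lower (0.0265%), and Ckap4 is 1 of the 7 members called. Among the 11 genes called in the authors' deposited table it has the smallest fold change and the highest mean level, at 85.3 TPM over the 6 libraries. Atp13a3, another of the lower genes in the authors' deposited table and outside the set, has -0.84 there (SE 0.191). At an adjusted p under 0.05, limma on log2(TPM + 1) called 0 of 13739 genes (0%), while 459 (3.34%) had an unadjusted p under 0.05. No member passed in that fit, so no member is described as having changed by it. Among the 3995 genes that averaged 50 TPM or more, 14, with Ckap4 itself counted, had a fold change as low as that of Ckap4 or lower.

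**Figure D1:**
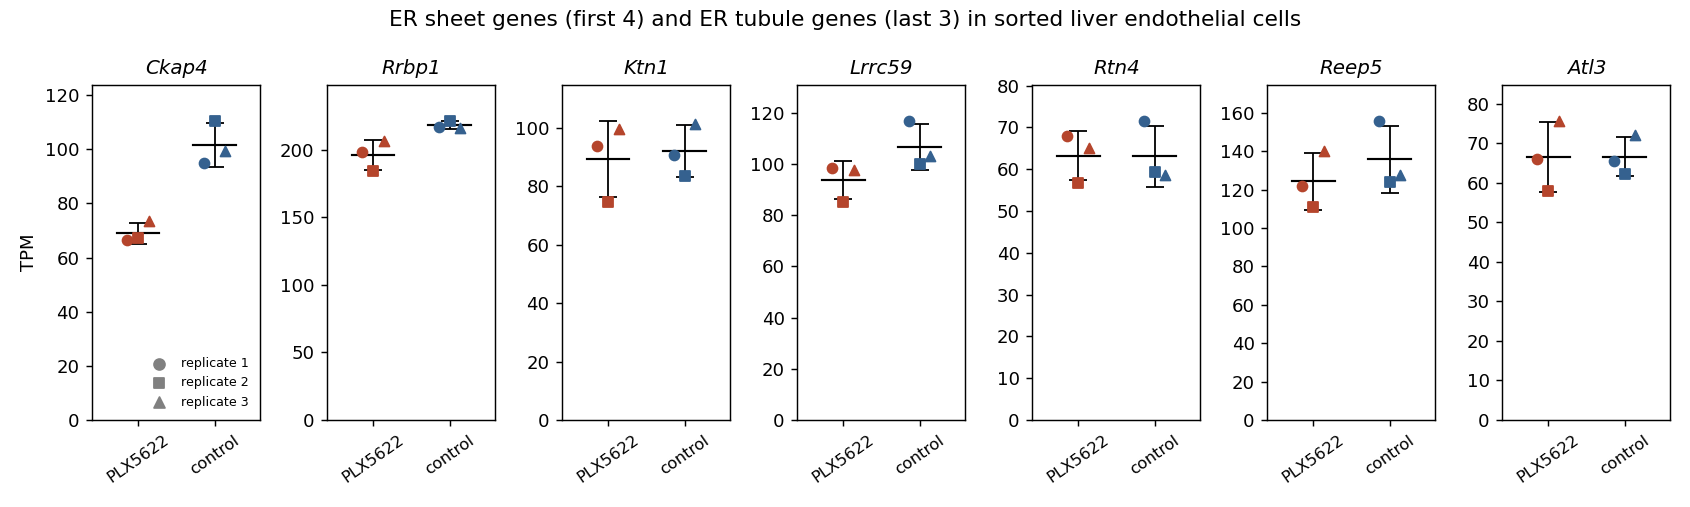
TPM of the 7 genes in each library, PLX5622 left and control right of each panel; points are libraries with a symbol for the replicate number, lines are means and bars are SD (n = 3). Ckap4 lies at 66.5 to 73.4 TPM on PLX5622 and at 94.8 to 110.5 TPM on control, while the diets overlap in Ktn1, Rtn4, Reep5 and Atl3.

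The other sheet genes lay closer to their control levels. Rrbp1 was the most abundant member, with 197.9, 184.1 and 206.4 TPM in PLX5622 replicates 1 to 3, against 216.5, 221.2 and 216.3 TPM in control replicates 1 to 3. The diets did not overlap, and the control libraries lay within 5 TPM of one another. The PLX5622 mean of Rrbp1, 196.1 ± 11.2 TPM, was 90.0% of the control mean, 218.0 ± 2.82 TPM (SD, n = 3 each), with a log2 fold change of -0.15 (95% interval -0.34 to 0.035). Its values rest on 6069 to 8448 reads per PLX5622 library and 5991 to 13857 reads per control library.

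Lrrc59, whose product is a ribosome-binding membrane protein with leucine-rich repeats, had 98.4, 85.0 and 97.7 TPM in PLX5622 replicates 1 to 3, against 116.9, 99.9 and 103.3 TPM in control replicates 1 to 3. The diets did not overlap, but the gap was narrow, between 98.4 TPM in PLX5622 replicate 1 and 99.9 TPM in control replicate 2. Its log2 fold change was -0.19 (95% interval -0.43 to 0.055), and it was -0.12 without PLX5622 replicate 2 or without control replicate 1. Exons of Eme1 on the opposite strand share 7.19% of the exon bases of Lrrc59 in GENCODE M21. Reads there cannot be assigned to a strand in these libraries, and Eme1 itself stood at a mean of 3.69 TPM.

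Ktn1 showed no separation. It had 93.8, 74.7 and 99.6 TPM in PLX5622 replicates 1 to 3, against 90.8, 83.7 and 101.4 TPM in control replicates 1 to 3, and the ranges lay across each other. Its log2 fold change was -0.047 (95% interval -0.36 to 0.26). Without PLX5622 replicate 2, its lowest library, the value turned to 0.076, and without control replicate 3, its highest, to 0.025.

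The tubule genes overlapped between diets in all 3 cases. Rtn4, which encodes the reticulon also known as Nogo, had 68.0, 56.6 and 65.0 TPM in PLX5622 replicates 1 to 3, against 71.6, 59.2 and 58.6 TPM in control replicates 1 to 3. Its means were 63.2 ± 5.91 TPM on PLX5622 and 63.1 ± 7.32 TPM on control (SD, n = 3 each), and its log2 fold change was 0.0036 (95% interval -0.28 to 0.28). The table gives 1 value per gene, so the isoforms of Rtn4 were not resolved, and exons of Eml6 on the opposite strand share 18.4% of its exon bases in GENCODE M21.

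Reep5 had 122.0, 110.9 and 140.1 TPM in PLX5622 replicates 1 to 3, against 156.0, 123.9 and 127.9 TPM in control replicates 1 to 3. Control replicate 1 was the highest library and PLX5622 replicate 3 the next, so the diets were interleaved. Its log2 fold change was -0.13 (95% interval -0.42 to 0.17). It was -0.024 without control replicate 1.

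Atl3 had 66.1, 57.8 and 75.7 TPM in PLX5622 replicates 1 to 3, against 65.5, 62.3 and 72.1 TPM in control replicates 1 to 3. The PLX5622 libraries held both the lowest and the highest value. Its log2 fold change was -0.0081 (95% interval -0.29 to 0.28).

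Over the set, 6 members had a fold change below 0 and 1, Rtn4, above it, where 53.8% of all genes tested were below 0. In 3 of 7 members every PLX5622 library lay below every control library, which held for 4.5% of genes tested. These counts rest on the contrast that brought Ckap4 into the set, and nothing is read from them. The sign of Atl3 turned positive under median-of-ratios scaling, quantile normalization and voom on the recovered reads, while the 4 sheet genes stayed below 0 under each of these.

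The order of levels differed between diets in the place of Ckap4. On PLX5622 the order was Rrbp1 at 196.1 TPM, Reep5 at 124.4, Lrrc59 at 93.7, Ktn1 at 89.4, Ckap4 at 69.0, Atl3 at 66.5 and Rtn4 at 63.2. On control it was Rrbp1 at 218.0 TPM, Reep5 at 135.9, Lrrc59 at 106.7, Ckap4 at 101.6, Ktn1 at 92.0, Atl3 at 66.6 and Rtn4 at 63.1. On PLX5622 the means of Lrrc59 and Ktn1 differed by less than their SDs of 7.54 and 13.03 TPM, as did those of Ckap4 and Atl3, with SDs of 3.86 and 8.93 TPM, and those of Atl3 and Rtn4, whose SD was 5.91 TPM. On control the means of Lrrc59 and Ckap4 differed by less than their SDs of 8.997 and 8.11 TPM, and those of Atl3 and Rtn4 by less than 5.02 and 7.32 TPM. All 7 genes lay between the 76.5th and the 94.0th percentile of mean level among genes tested.

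Ratios within a library are free of its scaling, and those of Ckap4 to the other members were lower on PLX5622. Ckap4 over the sum of Rrbp1, Ktn1 and Lrrc59 was 0.170, 0.195 and 0.182 in PLX5622 replicates 1 to 3, against 0.223, 0.273 and 0.236 in control replicates 1 to 3. The log2 difference was -0.42, and it lay between -0.48 and -0.33 when any library was left out. The ratios of Ckap4 to each of the 6 other members, taken singly, did not overlap between diets. All 6 share the Ckap4 values on which the gene was selected. They are therefore not separate observations, and nothing is read from their number. The margin was narrow against Reep5, at 0.605 in PLX5622 replicate 2 and 0.608 in control replicate 1, and against Lrrc59, at 0.789 and 0.811 in the same libraries. Without Ckap4, the summed sheet genes over the summed tubule genes gave 1.496 ± 0.050 on PLX5622 and 1.58 ± 0.111 on control (SD, n = 3 each), which overlapped. With Ckap4 this ratio was 1.77 ± 0.063 on PLX5622 and 1.96 ± 0.171 on control, a log2 difference of -0.15, and control replicate 1, at 1.77, lay among the PLX5622 libraries.

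**Figure D2:**
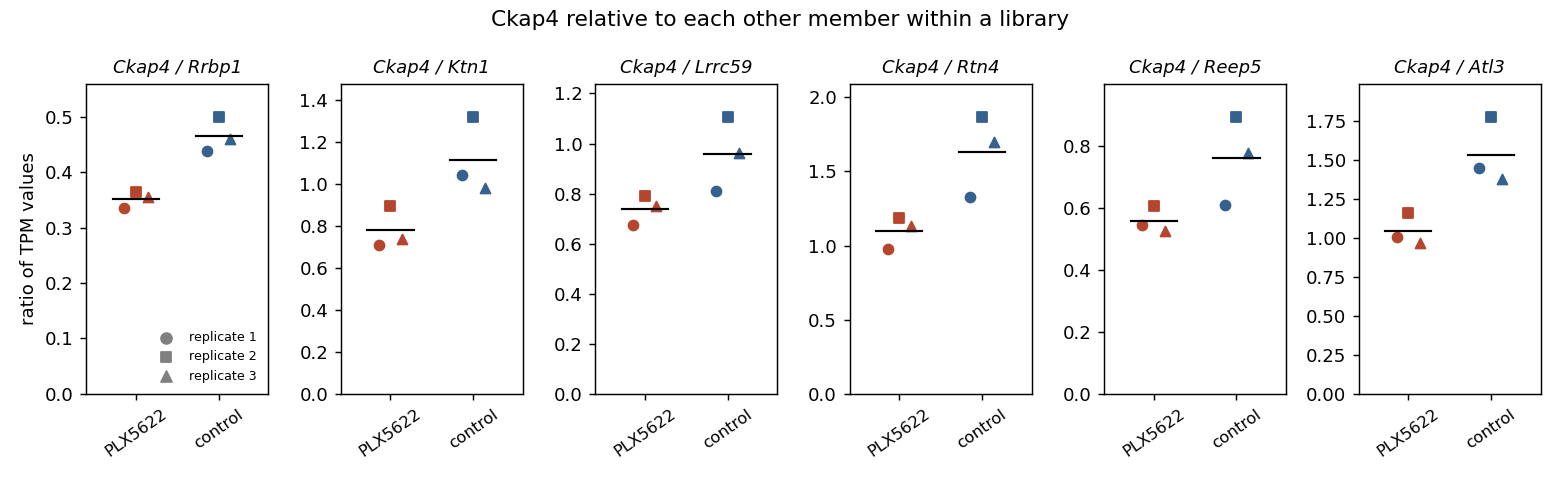
Ratio of Ckap4 TPM to the TPM of each other member within a library, PLX5622 left and control right of each panel; points are libraries with a symbol for the replicate number, and lines are means. The PLX5622 libraries lie below the control libraries in all 6 panels, with the smallest gap in Reep5 (0.605 against 0.608). All 6 panels share the Ckap4 values on which the gene was selected.

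To see how the members varied within a diet, deviations of log2(TPM + 1) from the diet mean were correlated over the 6 libraries, as a description of points that share libraries and hence any difference in cell mix or scaling. Among the 15 pairs without Ckap4 Pearson's r was above 0 in 15, with a median of 0.58 and a range of 0.33 to 0.97. The highest were Lrrc59 with Rtn4 at 0.97 and Ktn1 with Atl3 at 0.96, each a sheet gene with a tubule gene. Among the 6 pairs with Ckap4 r was above 0 in 3, between -0.37 for Rtn4 and 0.58 for Rrbp1, the last as high as the median pair without Ckap4. PLX5622 replicate 2 was below its diet mean in all 7 genes, by 0.039 in Ckap4 and by 0.24 in Ktn1. Ckap4 was highest among control libraries in replicate 2, where Ktn1, Lrrc59, Rtn4, Reep5 and Atl3 lay below their means.

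**Figure D3:**
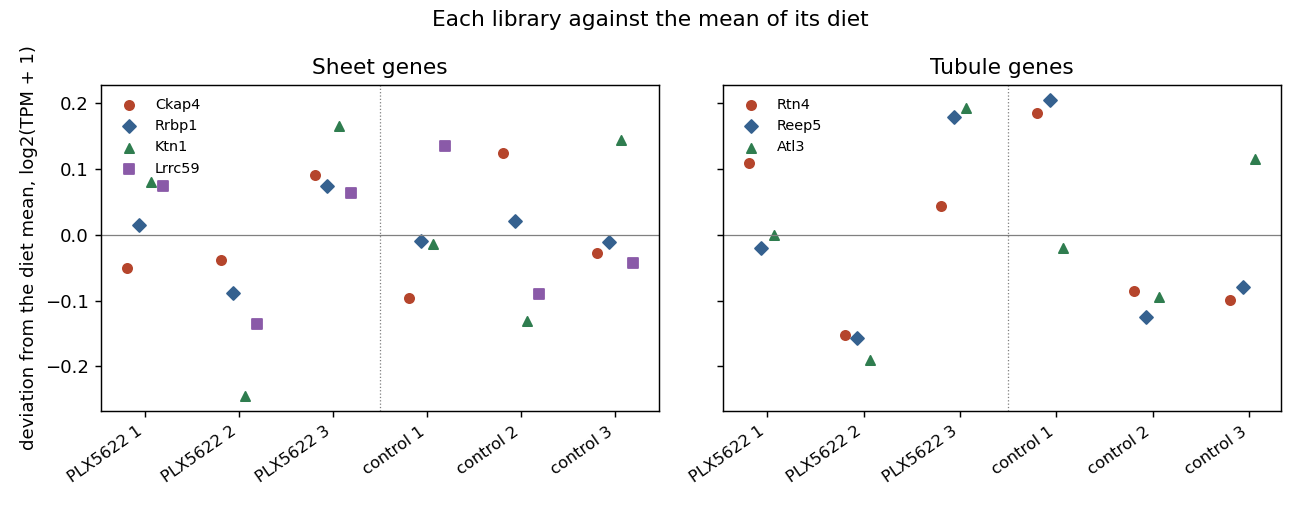
Deviation of each member from the mean of its diet in log2(TPM + 1), by library, with sheet genes in the left panel, tubule genes in the right panel, and PLX5622 libraries left of control libraries. In control replicate 2 Ckap4 lies 0.124 above its mean while Ktn1 lies below its own by 0.130 (-0.130 on this axis).

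By level over the 6 libraries, the genes most like Ckap4 among 9426 that averaged 10 TPM or more were Mkks (r = 0.99), which encodes a chaperonin-like protein, the calmodulin gene Calm3 (0.98), the GTPase-activating protein gene Dlc1 (0.98), the COP9 signalosome gene Cops6 (0.98) and Rapgef1 (0.97), a guanine nucleotide exchange factor for Rap1. Dlc1 stood at 240.0 ± 8.55 TPM on PLX5622 and 286.6 ± 10.7 TPM on control (SD, n = 3 each), and Rapgef1 at 99.2 ± 2.53 TPM on PLX5622 and 124.6 ± 4.37 TPM on control. Rrbp1 was the member nearest to Ckap4, at r = 0.90 and rank 68, and Lrrc59 followed at 0.60 and rank 1003. By deviation from the diet means the nearest genes included Marchf8 (r = 0.995), Zfp414 (0.99), Srrm2 (0.99) and Gm7160 (0.99), and Rrbp1 ranked 2070. These are the top of 9426 correlations over 6 libraries, given as a description. Ckap4 was selected on its difference between diets. A difference between diets in the genes nearest to it by level therefore follows from how they were picked, and nothing is read from it.

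Markers of other cell types were summed in each library. The 12 Kupffer cell markers are genes of the macrophages of the sinusoid. They summed to 76.4, 122.1 and 99.8 TPM in PLX5622 replicates 1 to 3, against 176.0, 126.7 and 214.3 TPM in control replicates 1 to 3. Of the Kupffer cell markers 12 of 12 were below 0 in fold change, where 53.8% of all genes tested were, and 0 of 12 were at 0 in all libraries. Clec4f, a lectin specific to these cells, stood at 7.91 ± 3.93 TPM on PLX5622 and 23.2 ± 10.8 TPM on control, and Csf1r at 2.87 ± 1.49 TPM on PLX5622 and 7.27 ± 1.35 TPM on control (SD, n = 3 each). Monocyte and dendritic cell markers summed to 4.13 to 17.6 TPM on PLX5622 and 24.8 to 45.4 TPM on control, with 2 of 10 at levels that could be tested, Lyz2 and Spi1. The authors' deposited table holds 5 of these 10 markers and calls 1 of them, where it calls 0.0729% of all its genes. The 18 hepatocyte markers summed to 1720 to 3476 TPM on PLX5622 and 2505 to 5924 TPM on control, with 16 below 0. Alb stood at 657 ± 283 TPM on PLX5622 and 1477 ± 778 TPM on control (SD, n = 3 each).

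Within the diets, the order of the Kupffer sums was not that of Ckap4, while the hepatocyte sums, at 1720, 1885 and 3476 TPM in PLX5622 replicates 1 to 3, had the order of Ckap4 on PLX5622 but not on control. PLX5622 replicate 2 and control replicate 2 had the closest Kupffer sums between diets, 122.1 and 126.7 TPM, with Ckap4 at 67.1 and 110.5 TPM. Their monocyte and dendritic cell sums were 17.6 and 24.8 TPM, and those sums, like Ckap4, did not overlap between diets. Control replicate 2 had the lowest Kupffer sum of its diet and the highest Ckap4. PLX5622 replicate 3 had more hepatocyte marker RNA than control replicates 2 and 3, with less Ckap4. Without control replicate 1, the library richest in hepatocyte markers, the log2 fold change of Ckap4 was -0.60. These libraries were picked for comparison after their values were seen. The levels of Ckap4 in the macrophages, monocytes and hepatocytes of these livers were not measured here, and the part of these cells in the difference was not tested.

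**Figure D4:**
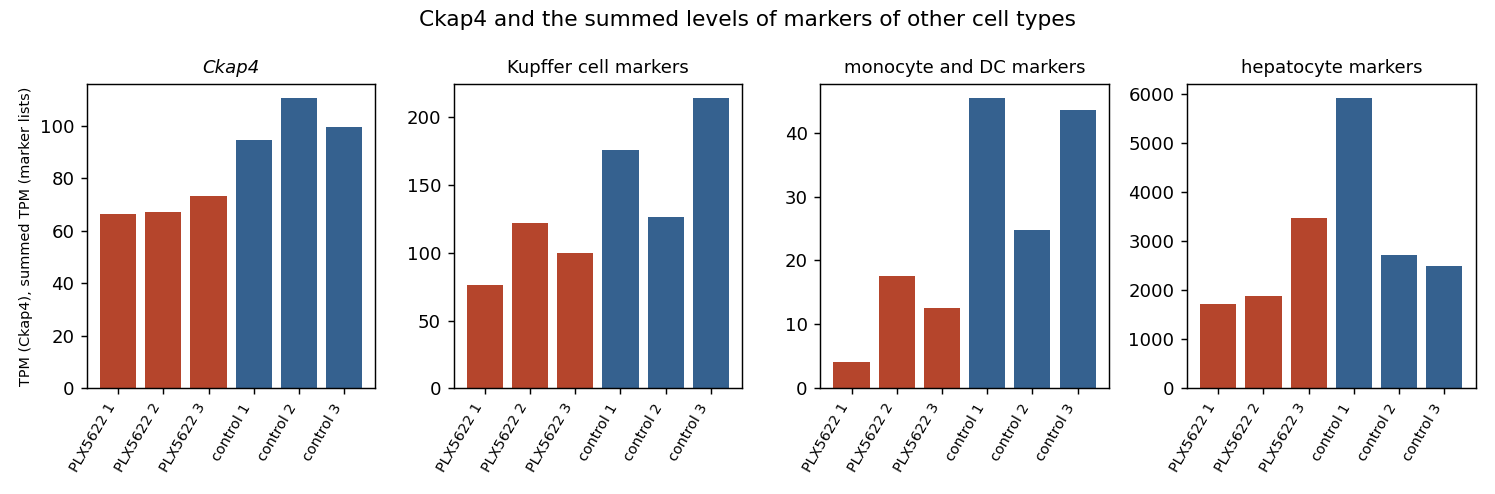
Ckap4 TPM and the summed TPM of Kupffer cell, monocyte and dendritic cell (DC), and hepatocyte markers in each library, with PLX5622 libraries left of control libraries; each bar is 1 library. PLX5622 replicate 2 and control replicate 2 have Kupffer sums of 122.1 and 126.7 TPM and Ckap4 levels of 67.1 and 110.5 TPM. Their monocyte and DC sums are 17.6 and 24.8 TPM. These libraries were picked after their values were seen, and the part of these cell types in the difference of Ckap4 was not tested.

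Other genes of the ER were set beside the members in 10 lists, chosen with earlier results of these data known. By limma 0 genes of the 10 lists passed an adjusted p under 0.05 in either direction, where 0% of all genes did, and the authors' deposited table also calls 0 of them. At an unadjusted p under 0.05 limma had 1 gene higher, Tmem258, and 2 lower, Rpn1 and Sec23b, in the 10 lists together. Of all genes tested, 1.64% were higher and 1.7% lower at that level. The lists held 11, 15, 7, 23, 12, 16, 16, 4, 3 and 17 genes tested, and nothing is read from these counts. The median fold change over all genes tested was -0.017, and 53.8% of them were below 0. Genes of a list share the same libraries, so counts by direction are given as a description.

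Among tubule relatives, the 11 tested genes of the list of other reticulons, REEP proteins and ARL6IP proteins had a median log2 fold change of -0.016, with 4 above and 7 below 0. Arl6ip1, which encodes a curvature-forming hairpin protein, stood at 161.4 ± 7.98 TPM on PLX5622 and 177.0 ± 16.5 TPM on control, and Arl6ip5 at 234.9 ± 13.4 TPM on PLX5622 and 238.8 ± 40.6 TPM on control (SD, n = 3 each). Rtn4rl1, at 0.26 (95% interval -0.035 to 0.56), is listed by its name but encodes a relative of the receptor for RTN4. The list of 15 fusion, junction and curvature genes had a median of -0.034, with 5 above and 10 below 0. Rab10, a GTPase of growing tubules, was at -0.0062 (95% interval -0.23 to 0.22), Pgrmc1 at -0.033, and Spast, which encodes the microtubule-severing ATPase spastin, at 0.14 (95% interval -0.15 to 0.44). Tmem170, which encodes a membrane protein that favours sheets in human cells, stood at 10.5 ± 0.126 TPM on PLX5622 and 8.79 ± 1.10 TPM on control (SD, n = 3 each) without overlap. The share of all genes that were higher on PLX5622 without overlap was not worked out.

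Receptors that send ER fragments to autophagy had 6 of 7 genes above 0 and a median of 0.086. Retreg2 was at 0.15 (95% interval -0.087 to 0.38), Ccpg1 at 0.13, Tex264 at 0.020 and Sec62, which also belongs to the translocation machinery, at -0.043. In the nuclear envelope and anchoring list, 6 of 17 were above and 11 below 0, with a median of -0.066. Esyt1, a tether of the ER to the plasma membrane, stood at 103.7 ± 17.3 TPM on PLX5622 and 125.5 ± 22.3 TPM on control, Tmpo, a lamina-associated protein gene, at 66.1 ± 5.20 TPM on PLX5622 and 72.8 ± 5.82 TPM on control, and Tor1aip1, a torsin-activating protein gene, at 120.5 ± 7.23 TPM on PLX5622 and 120.5 ± 0.293 TPM on control (SD, n = 3 each).

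Of 23 tested genes of the translocon and signal recognition, which bring new proteins into the ER, 12 were above and 11 below 0, with a median of 0.0091. Ssr3, of the translocon-associated complex, was at 0.043, the signal recognition receptor gene Srpr at -0.0054, Srp14 at 0.16 (95% interval -0.032 to 0.35) and the signal peptidase gene Spcs3 at -0.20 (95% interval -0.44 to 0.046). The oligosaccharyltransferase, which attaches glycans as proteins enter the ER, had 8 of 12 genes above 0 and a median of 0.019, and its subunits lay on both sides of 0. Rpn1 had 124.5, 118.4 and 123.4 TPM in PLX5622 replicates 1 to 3, against 146.8, 155.9 and 131.7 TPM in control replicates 1 to 3, which is -0.24 on the log2 scale (95% interval -0.45 to -0.028). Tmem258 had 71.8, 66.9 and 73.0 TPM in PLX5622 replicates 1 to 3, against 58.4, 61.3 and 46.2 TPM in control replicates 1 to 3, which is 0.36 on the log2 scale (95% interval 0.065 to 0.65). Neither overlapped between diets, and neither passed the adjusted threshold. Rpn2, lower on PLX5622, and Ost4, higher on PLX5622, did not overlap either. Of all genes tested, 4.5% were lower on PLX5622 without overlap, and the share higher without overlap was not worked out. Rpn2 was at -0.11 and Ddost at 0.023.

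Luminal chaperones and folding enzymes had 16 of 16 genes below 0, where 53.8% of all genes tested were. Their median was -0.13, with a range of -0.24 to -0.0023. Under median-of-ratios scaling, quantile normalization and voom 15 of 16 were below 0. Hspa5, which encodes the chaperone BiP, had 1629, 1469 and 1199 TPM in PLX5622 replicates 1 to 3, against 1854, 1426 and 1276 TPM in control replicates 1 to 3, and the diets overlapped. Calr was at -0.15 (95% interval -0.40 to 0.10), Pdia6 at -0.22 (95% interval -0.53 to 0.090) and Hyou1 at -0.21 (95% interval -0.54 to 0.12). Sdf2l1 was the 1 gene of the 16 without overlap between diets, where 4.5% of genes tested were lower on PLX5622 without overlap. Summed over the list, control replicate 1 was highest at 6874 TPM, against 5199 to 5890 TPM in the PLX5622 libraries and 5323 and 5730 TPM in the other control libraries, and without it the median was -0.046.

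COPII carriers, which bud from the ER towards the Golgi, had 13 of 16 genes below 0, where 53.8% of all genes tested were. Their median was -0.11, and it was -0.063 without PLX5622 replicate 2 and -0.055 without control replicate 1. Sec23b, a coat subunit, stood at 53.1 ± 3.20 TPM on PLX5622 and 62.9 ± 3.19 TPM on control (SD, n = 3 each) without overlap, with a log2 fold change of -0.24 (95% interval -0.46 to -0.017). In this list 2 of 16 genes were lower without overlap, where 4.5% of genes tested were. Sec31a was at -0.11 and Sar1a at -0.15. Of the kinesin-1 subunits, the motor that kinectin was named for, 4 of 7 could be tested, with a median of -0.14. That median was -0.23 without PLX5622 replicate 1, -0.038 without PLX5622 replicate 2, -0.044 without PLX5622 replicate 3 and -0.046 without control replicate 1. Kif5b was at -0.11 (95% interval -0.50 to 0.28), Klc1 at -0.16 (95% interval -0.41 to 0.087) without overlap, and Klc4 at 0.12.

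CKAP4 also reaches the cell surface, where in human cells it binds DKK1 and DKK3 and tissue plasminogen activator, the product of Plat, and it is palmitoylated by ZDHHC2. Of 5 genes in that list, 3 could be tested. Plat stood at 44.0 ± 1.96 TPM on PLX5622 and 39.1 ± 9.45 TPM on control, and Zdhhc2 at 1.35 ± 0.556 TPM on PLX5622 and 0.878 ± 0.289 TPM on control (SD, n = 3 each). Dkk3 spread widely, with 16.1, 21.2 and 28.8 TPM in PLX5622 replicates 1 to 3, against 7.58, 25.97 and 30.8 TPM in control replicates 1 to 3. Dkk1 was below the filter, at a mean of 0.309 TPM.

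**Figure D5:**
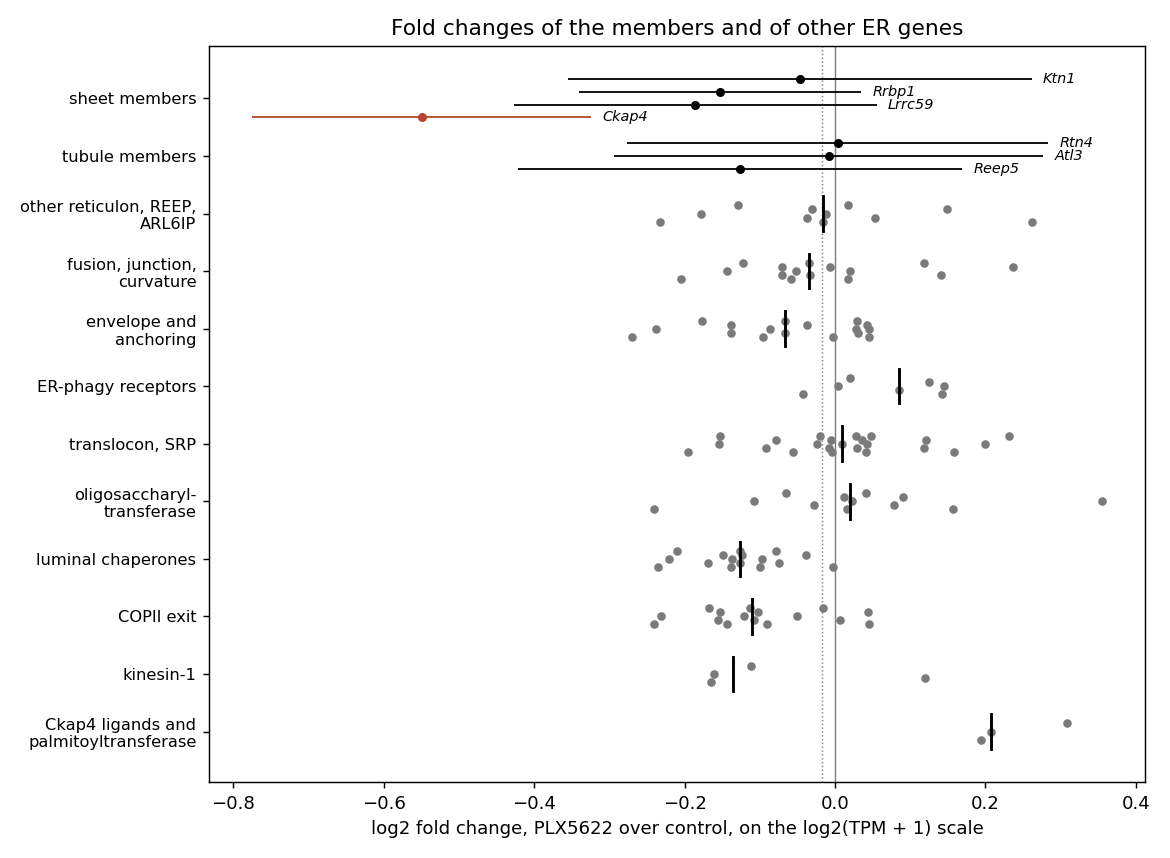
Log2 fold change, PLX5622 over control, as differences of mean log2(TPM + 1); members have points with 95% intervals of the limma fit, other ER genes are grey points by list with the list median as a black bar, and the dotted line is the median of all genes tested. Ckap4, at -0.55, lies outside the range of the other ER genes plotted, whose lowest is -0.27 (Esyt1) and whose highest is 0.36 (Tmem258). Ckap4 was selected on this contrast, so its place outside that range is not a result.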

How the data were processed

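Polyadenylated RNA of CD31-sorted mouse liver cells was measured in 6 libraries, grouped by the sample titles. The genome build mm39, the tools featureCounts of Subread 2.0.1 and STAR 2.7.10a, and R 4.1.0 with DESeq2 1.32.0 are listed by the submitters' processing notes. What annotation and filters were used is not given in the sources used here. Expression was deposited as TPM, which the authors scaled so that every library has 1 total. The authors' comparison table, per the file headers, holds a DESeq2 mean normalized count (a signal), the log2 fold change with its SE, the Wald statistic (a score), and raw and adjusted p-values; its fold changes have the sign of the TPM fit in 95.5% of genes tested in both tables.

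Reads were worked out from TPM and the deposited mean normalized counts for 15097 genes: 100% of values under 50 reads fell within 0.05 of a whole number in each library. Such depths cover counting error only.

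Genes that averaged 1 TPM or more (13739, leaving out 12525) were fitted with limma 3.58.1 (R 4.3.3), with trend, on log2(TPM + 1), PLX5622 over control, two-sided, with Benjamini-Hochberg adjustment over all genes at 0.05. The log2(TPM + 1) scale understates changes of low genes. The step was tested on simulated data. The members and lists were chosen with earlier results of these data known. Genes named are the 7 members, per list the 2 with the smallest p and the 2 with the highest level, the 5 most like Ckap4 by each of 2 measures (1 of these genes is not reported here), and Alb, Csf1r, Clec4f and Pecam1 (mean 1712 TPM on PLX5622, 1682 TPM on control). Sdf2l1, Ost4, Lyz2, Spi1, Stab2, Clec4g and Atp13a3 were named after their values were seen. Median fold changes of a list stand beside that of all genes, with no set test. Markers of neutrophils, lymphocytes, platelets, cholangiocytes and stellate cells summed to at most 105 TPM in any library. Alternatives were other pseudocounts and filters, 2 scalings, other limma settings, voom on the recovered reads, a block by replicate number, and leaving out each library.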

Additional observations from a re-analysis of the deposited data

How the results depend on the processing

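Over 20 results and 318 values under alternatives, 96 were identical to the reported value, most of them under settings that leave a fold change as it is (limma without trend or robust, the replicate block, other filters). Of the 222 that differed, 221 moved by less than the spread between replicates (1 SD). The other was the median of the nuclear envelope and anchoring list. That median was -0.066 with all libraries and between -0.092 and -0.046 without single libraries, and the cause was not tested. Leaving out 1 of the 3 libraries of a diet cannot move a member or a ratio by 1 SD. The count within 1 SD is therefore no support for those values. The number of genes called by limma was 0 in each fit. The log2 fold change of Ckap4 was between -0.57 and -0.52 under other settings and between -0.60 and -0.49 without single libraries. Without single libraries Rrbp1 was between -0.19 and -0.11, Lrrc59 between -0.23 and -0.12, Reep5 between -0.22 and -0.024, Ktn1 between -0.13 and 0.076, Rtn4 between -0.051 and 0.096 and Atl3 between -0.10 and 0.087, so the sign of the last 3 depended on single libraries. Sheet over tubule genes lay between -0.22 (without control replicate 1) and -0.094 (without control replicate 2). Without single libraries the medians of 5 lists took either sign: other reticulons (-0.087 to 0.041), fusion and junction genes (-0.054 to 0.063), ER-phagy receptors (-0.011 to 0.15), translocon (-0.018 to 0.039) and oligosaccharyltransferase (-0.011 to 0.058). The number of genes at an unadjusted p under 0.05 was 459, against 699 with no filter, 847 without control replicate 1 and 304 without PLX5622 replicate 2. With the replicate block the fold change of Ckap4 was -0.55, 0 genes were called, and 821 had an unadjusted p under 0.05. Deviations of libraries with the same number correlated at 0.20, 0.14 and 0.087 for replicates 1, 2 and 3, each higher than with any other number, a hint from the data only, since the labels do not pair them. Each member had 1175 or more recovered reads in each library; counting error and the spread between libraries were not separated.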
